A study of Mus musculus and Homo sapiens with 15 samples.

Results

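The genes of MHC class II antigen presentation were followed across arsenic trioxide (ATO) treated and untreated tumours of the mouse. The members were 10 listed gene symbols: H2-Aa, H2-Ab1, H2-Eb1, Cd74, Ciita, H2-DMa, H2-DMb1, H2-DMb2, H2-Oa and H2-Ob. All 10 were found, among 52340 genes in the table of thymus tumours and among 56691 genes in the table of grafted tumours, and all 10 passed the filter on low counts in both tables. MHC class II molecules are pairs of an alpha and a beta chain that show peptides from endocytosed proteins to CD4 T cells. They are made mainly by B cells, dendritic cells, macrophages and, in the thymus, epithelial cells, where they take part in the selection of CD4 thymocytes; mouse T cells themselves make little or none. The invariant chain guides the new pair to endosomes, the DM protein exchanges the last piece of the invariant chain for a peptide, the DO protein restrains DM, and the transactivator CIITA switches the whole group on.

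The thymus tumours came from W/W mice, which carry the p53 mutation R282W on both alleles and are labelled as having T-lymphomas; all were taken at age day 150. They formed 3 groups of 3 libraries: a water group, an ATO group with tumours in progression (progressing) and an ATO group with tumours in regression (regressing). The grafted tumours are labelled as a CDX model in C57 mice of genotype WT, with 2 libraries after phosphate-buffered saline (PBS) and 2 after ATO, and the labels name neither the grafted cells nor the background strain of the W/W mice. Outcome defines the ATO groups of the W/W mice, so treatment and outcome cannot be told apart in a comparison with water, and since the labels do not say what a replicate is, p-values measure only the spread between these samples.

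Total counts were 12800367 to 17550594 per thymus tumour library and 12922147 to 15637644 per graft library. Water replicate 2 and progressing replicate 2 stood apart in composition, with TMM scaling factors of 0.747 and 0.794 against 1.03 to 1.16 in the other 7 thymus tumour libraries. Mitochondrial genes made up 2.55%, 3.79% and 2.75% of counts in the water libraries and 4.7%, 8.83% and 4.86% in the progressing libraries, without overlap. In the regressing thymus tumour libraries the share was 2.08%, 2.96% and 8.48%. The part of this share in the class II differences was not tested. The T-cell gene Cd3e was present in all 9 of these libraries at 108 to 328 CPM (counts per 1000000 counted reads, scaled by TMM). The immature T-cell genes Rag1, Rag2, Ptcra and Dntt lay at or below 3.28 CPM in the 3 water libraries, and Rag1 reached 258 to 3393 CPM in the 6 ATO libraries. The summed level of 9 B cell markers was 1611, 3276 and 292 CPM in the water libraries, against 5.12 to 214 CPM in the ATO libraries. The near absence of immature T-cell RNA sets all 3 water libraries apart from the ATO libraries, but does not by itself contradict a label of T-lymphoma. The B cell RNA in water replicates 1 and 2 is unexplained by that label. Whether the label holds was not tested, so the water group is compared as labelled only. The comparison of regressing with progressing tumours uses the water group for the filter, the scaling and the estimate of spread alone. In bulk tissue, fewer cells of a type and less RNA per cell cannot be told apart.

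Class II promoters are known for a shared upstream module, an X box bound by the RFX complex and a Y box bound by NF-Y, on which CIITA is assembled, and 3 upstream stretches are shown for the letters of these boxes. RefSeq promoter entries (GRCm38.p6) matched 7 of the 10 members in 8 windows; Cd74, Ciita and H2-Ab1 had no entry. The stretches, for the chains H2-Aa and H2-Eb1 and for H2-Ob, run 5′ to 3′ on the gene's strand and end just before its annotated start, with X boxes (AGNNACNNATG), Y boxes (GATTGG, or CCAATC where it lies on the opposite strand) and a CRE-like box (TGACGTCA) in capitals.
H2-Aa, chr17:34287824-34287983, minus strand: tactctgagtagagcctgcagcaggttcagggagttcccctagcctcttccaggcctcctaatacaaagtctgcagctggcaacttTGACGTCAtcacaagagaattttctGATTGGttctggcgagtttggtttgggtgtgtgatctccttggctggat
H2-Eb1, chr17:34305707-34305866, plus strand: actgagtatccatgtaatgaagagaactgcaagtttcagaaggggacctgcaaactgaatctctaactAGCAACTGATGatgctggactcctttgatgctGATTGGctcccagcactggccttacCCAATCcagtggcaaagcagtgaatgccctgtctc
H2-Ob, chr17:34238745-34238902, plus strand: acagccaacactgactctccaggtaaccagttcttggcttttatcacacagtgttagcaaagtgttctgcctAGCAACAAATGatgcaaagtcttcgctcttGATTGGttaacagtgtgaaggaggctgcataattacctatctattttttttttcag
The H2-Eb1 stretch overlaps an exon of Gm20513, annotated on the opposite strand. In H2-Eb1 the X box lies 92 to 82 bases and the Y box 60 to 55 bases before the start, 21 bases apart, and in H2-Ob the boxes are 19 bases apart. In H2-Aa the Y box lies 49 to 44 bases and the CRE-like box 74 to 67 bases before the start.

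Both strands of the 250 bases before each start were searched for these letters, which were chosen after the sequences had been seen. The X box letters occurred in 4 of the 8 windows of members and in 2.6% of all 32851 RefSeq windows, and the Y box letters in 7 of the 8 and in 14.6% of all. The CRE-like letters occurred in 1 of the 8 windows and in 1.55% of all. An X box followed by a Y box within 40 bases on the gene's strand was found in 10 windows of the 32851 (0.0304%), 3 of them those of H2-Eb1, H2-Ob and H2-DMb1 (22 bases apart). Another of the 10 belonged to H2-Eb2, a further class II beta chain gene outside the members. These matches are descriptions of the letters only, and no binding was measured.

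Progressing tumours held less RNA of every class II gene than water tumours: 10 of 10 members were lower by the quasi-likelihood test of edgeR after Benjamini-Hochberg adjustment (adjusted p under 0.05), where 7.13% of the 18119 genes tested were called lower. In all 10 the progressing libraries lay below all water libraries, a pattern seen in that direction for 14.7% of tested genes. The median log2 fold change of the members was -3.11 (range -5.28 to -2.30), beside -0.04 over all tested genes. Regressing tumours held more class II RNA than progressing tumours: 5 of 10 members (Cd74, H2-Aa, H2-Ab1, H2-DMb1 and H2-DMb2) were called higher, where 6.45% of tested genes were. The other 5 members did not pass, 9 of 10 had an unadjusted p under 0.05, and in 9 of 10 the groups did not overlap (21.4% of tested genes in that direction); the members' median was 2.08, beside -0.07 over all genes.

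Between regressing and water tumours, 1 of 10 members was called lower, H2-Oa, where 4.57% of tested genes were, and 9 did not pass. In 9 of 10 members every regressing library nevertheless lay below every water library, which 20.9% of tested genes did, and 4 members had an unadjusted p under 0.05. The median of the members was -1.15 (range -2.13 to -0.71), beside -0.11 over all genes. For all 10 members the group means thus ran in the order water, regressing, progressing. These 3 comparisons share libraries and are not independent of each other.

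Summed over the 10 members, the class II level was 4630, 8854 and 3814 CPM in the water libraries, 388, 989 and 427 CPM in the progressing libraries and 3341, 2140 and 3042 CPM in the regressing libraries. Progressing replicate 2 was the highest of its group and still below every regressing library. In progressing against water, 8 of 10 members passed without progressing replicate 3 and 9 without water replicate 1, and all 10 in the other 7 fits that left out 1 library. Without water replicates 1 and 2 together, the libraries high in B cell markers, 3 of 10 passed (H2-Aa, H2-DMb2 and H2-Oa), with all 10 still below 0 at log2 fold changes of -4.01 to -1.56 and 922 genes called in place of 2157. That fit, chosen after seeing the data, rests on 1 water library, which is assumed to vary like the other groups. Against the same library the regressing tumours differed in the members by -1.77 to -0.03, and H2-Oa was no longer called (adjusted p = 0.15). Between the outcomes, 1 member was called without progressing replicate 3 or without regressing replicate 1, 2 without regressing replicate 2 or 3, and all 10 when water replicate 2 and progressing replicate 2 were both left out. The count over all genes moved as well, from 2289 to 531 and 177 in the fits with 1 member called and to 3645 in the fit with all 10.

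**Figure D1:**
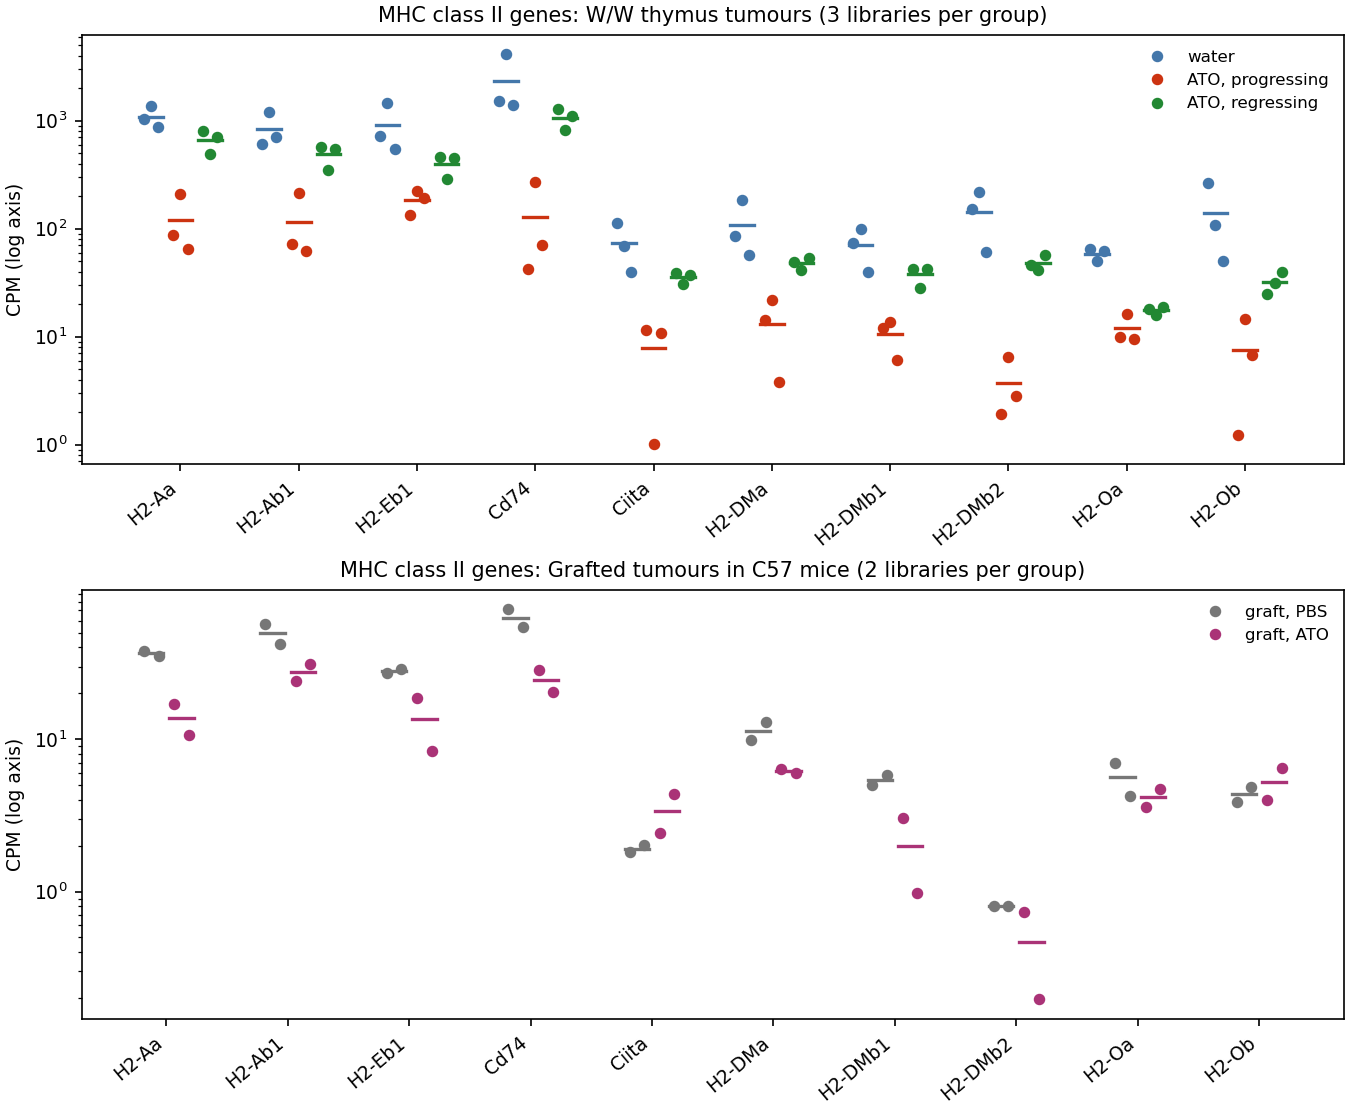
CPM (log axis) of the 10 class II genes in each library of the thymus tumours (upper panel, 3 libraries per group) and of the grafted tumours (lower panel, 2 per group); points are libraries and bars are group means. In the thymus tumours the red points (progressing) lie below all blue points (water) for every gene, and below all green points (regressing) for every gene but H2-Oa.

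The genes of the classical chains were described first. H2-Aa (ENSMUSG00000036594, chromosome 17, 34282744 to 34287823 in GRCm38), the alpha chain of the I-A molecule, stood at 1031, 1374 and 868 CPM in the water libraries, at 87.9, 210 and 64.4 CPM in the progressing libraries and at 805, 494 and 700 CPM in the regressing libraries. The 3 groups did not overlap, and the progressing level was far below the others. The log2 fold change was -3.18 (SE 0.49, edgeR adjusted p = 0.00471) in progressing against water, 9.03-fold lower, and the regressing tumours differed from water by -0.71 (SE 0.45, adjusted p = 0.325). Between the outcomes it was 2.46 (SE 0.47, adjusted p = 0.0159), 5.52-fold higher in regressing tumours; the call was lost without progressing replicate 3 (adjusted p = 0.0501) or regressing replicate 1 (0.0635), and without progressing replicate 2 the difference was 3.16 between the outcomes and -3.77 against water.

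H2-Ab1 (ENSMUSG00000073421, chromosome 17, 34257689 to 34269419), the beta chain that pairs with H2-Aa, followed it closely. It stood at 607, 1197 and 708 CPM in the water libraries, at 71.8, 215 and 61.5 CPM in the progressing libraries and at 565, 352 and 547 CPM in the regressing libraries. Again the groups did not overlap, although regressing replicate 1 came close to water replicate 1. The log2 fold change was -2.85 (SE 0.53, edgeR adjusted p = 0.0098) in progressing against water, 7.21-fold lower, and -3.58 without progressing replicate 2. Between the outcomes it was 2.07 (SE 0.51, adjusted p = 0.0307), 4.2-fold higher in regressing tumours, and 2.9 without progressing replicate 2. That call was lost without progressing replicate 1 or 3 or when regressing replicate 1, 2 or 3 was left out, with adjusted p from 0.0683 to 0.104.

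H2-Eb1 (ENSMUSG00000060586, chromosome 17, 34305867 to 34316674), the beta chain of the other classical molecule, I-E, kept more of its level in progressing tumours. It stood at 723, 1441 and 544 CPM in the water libraries, at 135, 221 and 191 CPM in the progressing libraries and at 462, 287 and 451 CPM in the regressing libraries. The groups did not overlap, and the gap between the outcomes was narrower than for H2-Aa. The log2 fold change was -2.31 (SE 0.43, edgeR adjusted p = 0.00965) against water in progressing tumours, 4.95-fold lower, whereas regressing minus progressing, 1.13 (SE 0.41, adjusted p = 0.0916), did not pass. It passed without water replicate 2 (adjusted p = 0.0239), with a log2 difference of 1.21.

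The alpha chain partner of H2-Eb1, H2-Ea, was close to absent, with 0 to 8 counts in the thymus tumour libraries and 0 in the 4 graft libraries. C57 black mice are known for a deletion in the H2-Ea promoter; the strain of the W/W mice is not given in the labels. H2-Eb2, a related beta chain gene, stood at 68, 25.9 and 66.2 CPM in the water libraries, at 1.73, 18.7 and 2.5 CPM in the progressing libraries and at 15.3, 11.6 and 19.5 CPM in the regressing libraries. Its progressing libraries lay below the water libraries, but the difference of -2.81 on the log2 scale (SE 0.83) did not pass, with an edgeR adjusted p of 0.0507, while limma-voom called it lower.

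Cd74 (ENSMUSG00000024610, chromosome 18, 60803848 to 60812652), the invariant chain, varied widely among the libraries of a group. It stood at 1517, 4115 and 1387 CPM in the water libraries, at 42.2, 269 and 70.3 CPM in the progressing libraries and at 1291, 818 and 1094 CPM in the regressing libraries. Progressing replicate 2 was the highest of its group, yet every library of the other groups was higher. The log2 fold change in progressing against water was -4.2 (SE 0.75, edgeR adjusted p = 0.0085), 18.4-fold lower; it was -3.53 without water replicate 2 and -5.31 without progressing replicate 2. Between the outcomes it was 3.07 (SE 0.72, adjusted p = 0.0256), 8.39-fold higher in regressing tumours, and 4.28 without progressing replicate 2. That call was lost without progressing replicate 3 or when regressing replicate 1, 2 or 3 was left out, with adjusted p from 0.0553 to 0.0862.

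Ciita (ENSMUSG00000022504, chromosome 16, 10480059 to 10528418), the transactivator and the only member besides Cd74 outside chromosome 17, stood at 113, 68.3 and 39.9 CPM in the water libraries, at 11.6, 1.01 and 10.8 CPM in the progressing libraries and at 39, 30.7 and 37.3 CPM in the regressing libraries. Progressing replicate 2, the library with the most class II RNA of its group, had the least Ciita, 12 counts. The log2 fold change in progressing against water was -3.24 (SE 0.73, edgeR adjusted p = 0.0202), 9.43-fold lower; it did not pass without water replicate 1 (adjusted p = 0.0537), without progressing replicate 3 (0.0555) or with the regressing group left out of the fit (0.054). Between the outcomes the difference of 2.19 (SE 0.70, adjusted p = 0.0633) did not pass, and against water the regressing tumours differed by -1.05 (SE 0.67, adjusted p = 0.333). Part of the Ciita locus is shared with Dexi on the opposite strand, and whether reads were counted by strand is not given in the sources used here.

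The DNA-binding factors that carry CIITA were not called lower. Of 7 such genes (Rfx5, Rfxap, Rfxank, Nfya, Nfyb, Nfyc and Creb1), 0 were called in either comparison with water by edgeR's quasi-likelihood test. The list medians were 0.17 in progressing and 0.57 in regressing tumours, with 1 and 2 genes at an unadjusted p under 0.05; DESeq2 called 0 and 2 of them (both higher) and limma-voom 0 in each. Over all tested genes, 11.9% and 7.7% were called in either direction. Between the outcomes Nfya, a subunit of NF-Y, was higher in regressing tumours by 1.13 (SE 0.27, adjusted p = 0.0292) and the other 6 did not pass. Rfx5, the defining subunit of RFX, stood at 58.9, 18.3 and 37.5 CPM in the water libraries, at 42.2, 21.1 and 23.6 CPM in the progressing libraries and at 64.5, 59.9 and 46.6 CPM in the regressing libraries, with overlap between water and each ATO group.

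The DM genes encode the peptide editor. H2-DMa (ENSMUSG00000037649, chromosome 17, 34119541 to 34139101), its alpha chain, stood at 85.8, 184 and 57 CPM in the water libraries, at 14.2, 21.6 and 3.82 CPM in the progressing libraries and at 49.1, 41.2 and 53.7 CPM in the regressing libraries. Its groups did not overlap, and it was 8.22-fold lower in progressing than in water tumours (log2 fold change -3.04, SE 0.62, edgeR adjusted p = 0.0131; -2.43 without water replicate 2). Regressing minus progressing, 1.86 (SE 0.59, adjusted p = 0.0615), did not pass with all libraries, but did without water replicate 2 (adjusted p = 0.0329). H2-DMa overlaps Brd2, annotated on the opposite strand with 46575 counts over the 9 libraries against 7388 for H2-DMa, so without strand its counts could hold reads of Brd2.

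H2-DMb1 and H2-DMb2 are neighbouring genes for alternative DM beta chains, and they changed unequally. H2-DMb1 (ENSMUSG00000079547, chromosome 17, 34153072 to 34160230) stood at 73.2, 99.3 and 39.5 CPM in the water libraries, at 11.9, 13.7 and 6.03 CPM in the progressing libraries and at 42.3, 28.1 and 42.6 CPM in the regressing libraries, where water and regressing overlapped. H2-DMb2 (ENSMUSG00000037548, chromosome 17, 34143307 to 34151555) stood at 152, 217 and 60.1 CPM in the water libraries, at 1.91, 6.42 and 2.79 CPM in the progressing libraries and at 45.7, 41.2 and 57.3 CPM in the regressing libraries, with no overlap between any groups. H2-DMb2 thus passed from the higher of the pair in water tumours to the lower in progressing tumours.

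In progressing against water, H2-DMb2 fell 38.8-fold (log2 fold change -5.28, SE 0.61, edgeR adjusted p = 0.00151), the largest fold of the 10 members, and H2-DMb1 6.7-fold (-2.74, SE 0.45, adjusted p = 0.00613). Between the outcomes H2-DMb2 was 13-fold higher in regressing tumours (3.7, SE 0.57, adjusted p = 0.00924) and H2-DMb1 3.57-fold (1.84, SE 0.44, adjusted p = 0.027). H2-DMb2 was the member whose difference between the outcomes passed in all 9 fits with 1 library left out, at 4.38 without progressing replicate 2. The H2-DMb1 call was lost without progressing replicate 3 or when regressing replicate 1, 2 or 3 was left out, with adjusted p from 0.0657 to 0.101. The transcripts of the pair are 95.5% identical over 1058 aligned bases, and 27.2% of the 50-base words of H2-DMb1 occur in H2-DMb2, so the authors' counting could have split or dropped reads between them. Counted as 1 gene, the pair stood at 225, 317 and 99.6 CPM in the water libraries, 13.8, 20.1 and 8.82 CPM in the progressing libraries and 87.9, 69.3 and 99.9 CPM in the regressing libraries. That sum was lower in progressing than in water tumours (-3.91, adjusted p = 0.00194) and higher in regressing than in progressing tumours (2.59, adjusted p = 0.0128).

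The DO genes encode the partner that restrains DM and are known for expression in B cells and thymic medullary epithelium. H2-Oa (ENSMUSG00000024334, chromosome 17, 34092340 to 34095234), the alpha chain, stood at 64.2, 50.4 and 61.6 CPM in the water libraries, at 9.99, 16.1 and 9.56 CPM in the progressing libraries and at 18.1, 15.7 and 18.8 CPM in the regressing libraries. Here the ATO groups lay together, with overlap between them, and both were clearly below water. The log2 fold change was -2.3 (SE 0.34, edgeR adjusted p = 0.00415) in progressing and -1.74 (SE 0.34, adjusted p = 0.0177) in regressing tumours against water, 4.94-fold and 3.35-fold lower. The difference between the outcomes was 0.56 (SE 0.33, adjusted p = 0.264). H2-Oa was the member called in regressing against water, and that call was lost without regressing replicate 1 (adjusted p = 0.0996), 2 (0.121) or 3 (0.0558). It overlaps BC051537 on the opposite strand, with 476 counts against 3935.

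H2-Ob (ENSMUSG00000041538, chromosome 17, 34238903 to 34254414), the DO beta chain, was the most variable member among the water libraries. It stood at 264, 108 and 50.2 CPM in the water libraries, at 1.23, 14.6 and 6.69 CPM in the progressing libraries and at 24.8, 31.4 and 40 CPM in the regressing libraries, and no groups overlapped. It was 18.8-fold lower in progressing than in water tumours (log2 fold change -4.23, SE 0.84, edgeR adjusted p = 0.0124). That difference was -3.41 without water replicate 1 and -5.11 without progressing replicate 2, and without progressing replicate 3 it did not pass (-4.15, adjusted p = 0.0562). The difference of regressing tumours from water, -2.13 (SE 0.77, adjusted p = 0.103), and from progressing tumours, 2.1 (SE 0.78, adjusted p = 0.095), did not pass. The first was -1.3 without water replicate 1, and the second 3.06 without progressing replicate 2.

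**Figure D2:**
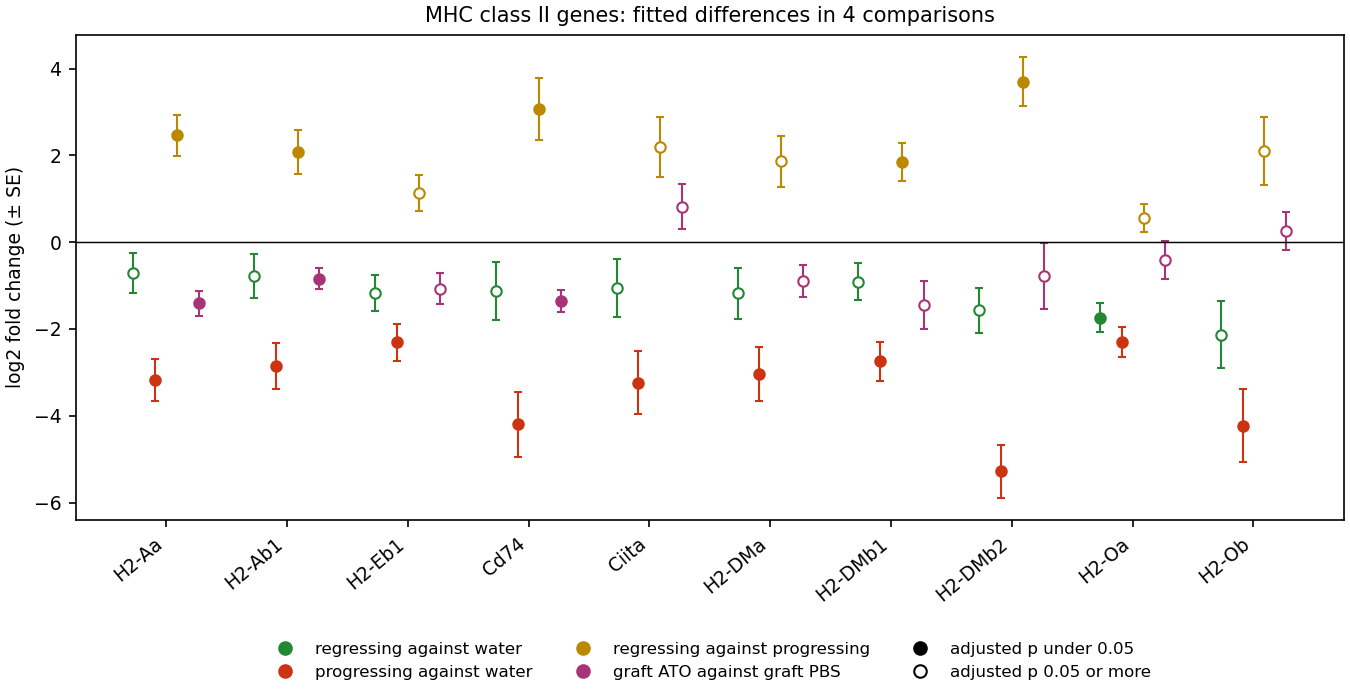
Fitted log2 fold change with its standard error for each class II gene in the 3 comparisons of thymus tumours and in the grafts; filled symbols have an adjusted p under 0.05 and open symbols do not. Progressing against water is filled and below 0 for all 10 genes, from -5.28 (H2-DMb2) to -2.30 (H2-Oa), while regressing against water is filled for H2-Oa alone.

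Levels of different genes were compared as CPM per kilobase of the deposited exonic length. The order of genes depends on that length, which need not be the length of the transcripts present. By CPM alone the classical chains in water tumours ran H2-Aa, H2-Eb1, H2-Ab1, with means of 1091, 903 and 837 CPM. In water tumours the order was Cd74 at 1393 ± 917 (SD, n = 3), H2-Eb1 at 464 ± 244, H2-Ab1 at 326 ± 123, H2-Aa at 287 ± 68, H2-DMb2 at 81.9 ± 45.2, H2-DMb1 at 42 ± 17.8, H2-Oa at 41.7 ± 5.2, H2-DMa at 31.6 ± 19.3, H2-Ob at 26.1 ± 20.6 and Ciita at 7.75 ± 3.89. The ranges of 1 SD around these means overlapped between Cd74 and H2-Eb1, among the classical chains, among the DM and DO genes and between H2-Ob and Ciita, but not between H2-Aa and H2-DMb2. These ranges hold the spread between libraries, which genes of the same library share. The ratios within a library given next are free of that shared spread, but rest on the same lengths. In regressing tumours Cd74, at 636 ± 142 per kilobase, was clear of H2-Eb1, H2-Ab1 and H2-Aa, which lay together at 206 ± 50.2, 190 ± 45.9 and 175 ± 41.6. In progressing tumours H2-Eb1 came first by its mean, at 93.8 ± 22.3 per kilobase, beside Cd74 at 75.8 ± 73.7, H2-Ab1 at 45.2 ± 33.5 and H2-Aa at 31.8 ± 20.6, where Cd74 overlapped all 3 within 1 SD and H2-Aa lay below H2-Eb1 by more than the spread. H2-DMb2, at 2.12 ± 1.37, lay by its mean below H2-Oa at 8.46 ± 2.62, H2-DMb1 at 6.27 ± 2.39 and H2-DMa at 3.84 ± 2.6, though within the spread of H2-DMa.

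Ratios within a library, on the same per-length scale, do not depend on the scaling between libraries. H2-DMb2 to H2-DMb1 was 1.99, 2.11 and 1.46 across water, 0.155, 0.451 and 0.446 across progressing and 1.04, 1.41 and 1.29 across regressing libraries. H2-Eb1 to H2-Aa was 1.37, 2.05 and 1.22 across water, 3.01, 2.05 and 5.8 across progressing and 1.12, 1.14 and 1.26 across regressing libraries. Cd74 to H2-Aa was 3.33, 6.78 and 3.61 across water, 1.09, 2.9 and 2.47 across progressing and 3.63, 3.74 and 3.54 across regressing libraries. All 3 ratios were above 1 in every water library on this scale. Another choice of length would shift a ratio by the same factor in every library. The progressing and water groups did not overlap for them, although progressing replicate 2 and water replicate 2 nearly met at 2.05 for H2-Eb1 to H2-Aa.

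H2-Ab1 to H2-Aa, the chains that pair with each other, varied least, from 0.871 to 1.52 over the 9 libraries. The H2-DMb2 to H2-DMb1 ratio was 5.83-fold lower in progressing than in water tumours and the H2-Eb1 to H2-Aa ratio 2.18-fold higher, each with an exact two-sided permutation p of 0.1, the smallest that 3 libraries against 3 can give, and 0.233 adjusted over the 7 ratios compared. Ciita to H2-Aa ranged from 0.00192 in progressing replicate 2 to 0.0668 in progressing replicate 3.

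**Figure D3:**
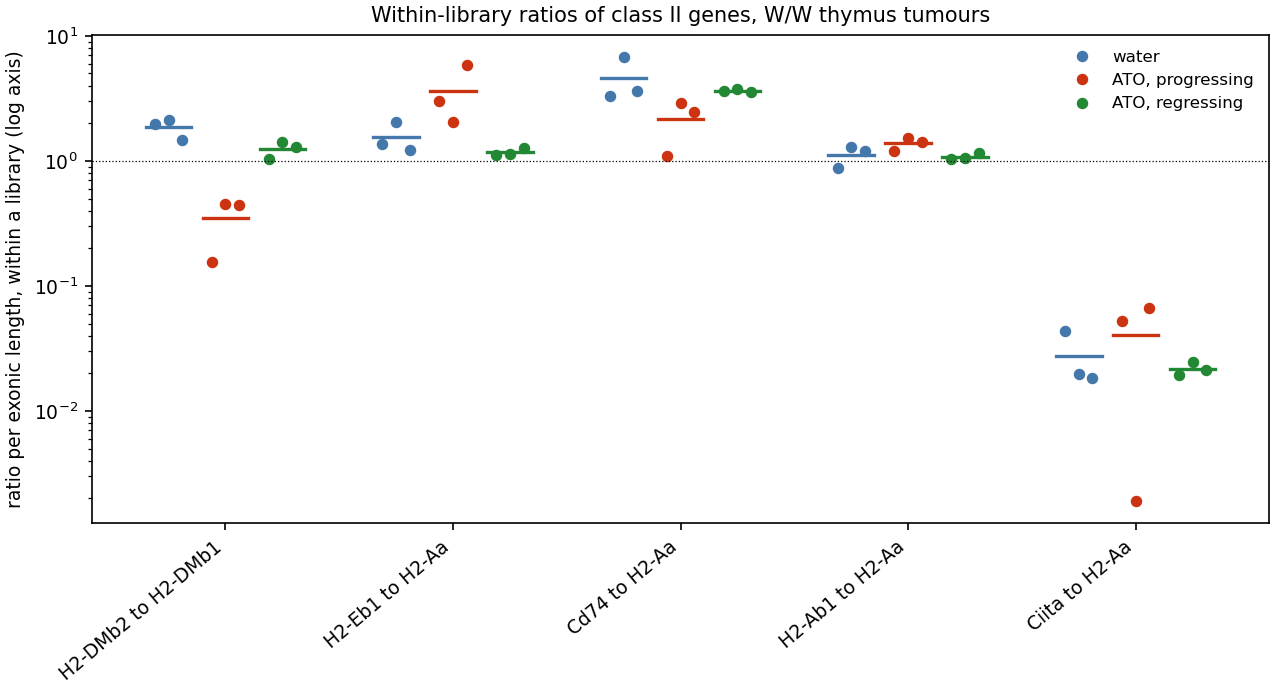
Ratio of 2 class II genes per exonic length within each thymus tumour library (log axis; points are libraries, bars are group means, the dotted line is a ratio of 1). H2-DMb2 to H2-DMb1 lies above 1 in all water and regressing libraries and at 0.155 to 0.451 in the progressing libraries.

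Genes of the same pathway outside the members were compared by list. Of 10 genes for antigen processing and class II turnover, 2 were lower in progressing than in water tumours: Marchf1, a ubiquitin ligase that removes class II from the surface (-2.43, SE 0.64, edgeR adjusted p = 0.0349), and Ctsh, a cathepsin (-2.11, SE 0.57, adjusted p = 0.0375); DESeq2 called 4 lower and limma-voom 3. Ctsh was also lower in regressing than in water tumours (-2.22, adjusted p = 0.0428). Against water, edgeR called 7.13% of tested genes lower in progressing and 4.57% lower in regressing tumours. Ctss, the protease that trims the invariant chain in many antigen-presenting cells, stood at 425, 664 and 517 CPM in the water libraries, at 152, 258 and 49.9 CPM in the progressing libraries and at 244, 107 and 197 CPM in the regressing libraries. Its differences from water, -1.80 (adjusted p = 0.0535) and -1.55 (adjusted p = 0.0928), did not pass, nor did those of Ifi30, the endosomal thiol reductase, at -1.78 (adjusted p = 0.0953) and -2.17 (adjusted p = 0.0643).

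Ctsl, the cathepsin that trims the invariant chain in cortical thymic epithelium, went the other way. It stood at 90, 270 and 195 CPM in the water libraries, at 256, 413 and 114 CPM in the progressing libraries and at 1062, 899 and 1131 CPM in the regressing libraries. It was higher in regressing tumours than in water tumours (2.48, SE 0.52, edgeR adjusted p = 0.0232) and than in progressing tumours (1.98, SE 0.51, adjusted p = 0.0342). The list medians were -0.54 in progressing and -1.19 in regressing tumours against water, and -0.02 between the outcomes, beside the all-gene medians above.

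Interferon gamma is known to induce Ciita. Of the genes of this axis, Irf2 and Ifng were lower in progressing than in water tumours and higher in regressing than in progressing tumours. Irf2, a factor of the interferon regulatory family, stood at 50.4, 67.7 and 43.6 CPM in the water libraries, at 19.5, 8.2 and 12.3 CPM in the progressing libraries and at 59.5, 56.7 and 52.9 CPM in the regressing libraries. Progressing lay below both other groups, and water and regressing overlapped. Its log2 fold change against water was -2.01 in progressing tumours (SE 0.37, edgeR adjusted p = 0.00934) and 0.06 in regressing tumours (SE 0.35, adjusted p = 0.923), and regressing minus progressing was 2.08 (SE 0.37, adjusted p = 0.0132). Between regressing and water tumours Socs1, a feedback inhibitor of this pathway, was called higher (2.14, adjusted p = 0.0298), where 3.13% of tested genes were. Ifng itself had 11, 40 and 26 counts across water, 0 in each progressing library and 10, 1 and 12 across regressing libraries, which is at least 8.15-fold higher in water than a floor of 3 counts per progressing library. For Irf1, another factor of that family, progressing replicate 2 had 400 CPM, against 44.6 and 144 CPM in the others of its group and 124 to 149 CPM in water, and no comparison of Irf1 passed.

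Of 5 costimulation genes, 4 were lower in progressing than in water tumours: Cd40 (-3.88), Icosl (-3.67), Cd83 (-3.62) and Cd86 (-2.44), with edgeR adjusted p between 0.00424 and 0.0345. Cd83, which protects class II from turnover, and Cd40, the receptor for T-cell help, were higher in regressing than in progressing tumours, by 3.4 (adjusted p = 0.00992) and 2.28 (adjusted p = 0.0369). Of all tested genes, 7.13% were called lower in the first of these comparisons and 6.45% higher in the second. Against water, edgeR called 0 of the 5 in regressing tumours, where 7.7% of tested genes were called in either direction. A count of 0 of 5 does not set the list apart from that share. Of the 5, 2 had an unadjusted p under 0.05 by edgeR, DESeq2 called 2 lower and limma-voom 0, and the list median was -1.24.

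Sums of B cell, dendritic cell and thymic epithelium markers were lowest in the progressing libraries, as was the class II sum. Those of macrophage markers overlapped between the groups. For the 9 B cell markers the sum was 292 to 3276 CPM in water, 5.12 to 46.4 CPM in progressing and 131 to 214 CPM in regressing libraries, and 7 of the 9 were lower in progressing than in water tumours by edgeR and 2 by limma-voom. Pax5 and Fcer2a had at most 3 counts in every progressing library, and Ms4a1 had 0, 7 and 2 counts. The sum of 9 dendritic cell markers was 141 to 183 CPM in water, 8.02 to 29.9 CPM in progressing and 61.2 to 124 CPM in regressing libraries, with 5 lower in progressing than in water tumours and 6 higher in regressing than in progressing tumours. Among all tested genes edgeR called 7.13% lower and 6.45% higher in these comparisons. The same shares stand beside the macrophage and thymic epithelium markers below.

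The 9 macrophage markers overlapped between the groups in their sum, at 606 to 1814 CPM in water, 222 to 904 CPM in progressing and 374 to 612 CPM in regressing libraries, and 1 of them, Csf1r, was lower in progressing than in water tumours. The 10 thymic epithelium markers summed to 230 to 1064 CPM in water and 106 to 154 CPM in progressing libraries. In regressing libraries they summed to 1647 to 1831 CPM, with the largest means for Prss16 (793 CPM) and Ccl25 (346 CPM). Of the 10, 5 were lower in progressing than in water tumours by edgeR and 1 by limma-voom, and 7 were higher in regressing than in progressing tumours. Against water, edgeR called 4 of the 10 higher in regressing tumours, where 3.13% of tested genes were, and 6 did not pass. Mean CPM in regressing and water tumours was 15.2 and 62.6 for Aire, 55.2 and 61.1 for Epcam, 92.4 and 185 for Krt5 and 24.1 and 43.5 for Krt14. The 11 T cell and thymocyte markers summed to 1078 to 1643 CPM in water, 4056 to 4437 CPM in progressing and 5956 to 11505 CPM in regressing libraries. Of these 11, 5 (Cd4, Ptcra, Rag1, Rag2 and Dntt) were called higher in progressing than in water tumours, where 4.77% of tested genes were, and Cd3d was at -0.36. Between the outcomes edgeR called 0 of the 11, with 4 at an unadjusted p under 0.05, DESeq2 called 3 higher and limma-voom 2, and the regressing sums were the higher ones, as for class II. Water replicate 3 differed in its markers from the other water libraries, with 292 CPM of B cell markers against 1611 and 3276 and with 1064 CPM of thymic epithelium markers against 230 and 270, while its class II sum of 3814 CPM was near the 4630 CPM of water replicate 1. The part of these cell types in the class II differences was not tested.

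**Figure D4:**
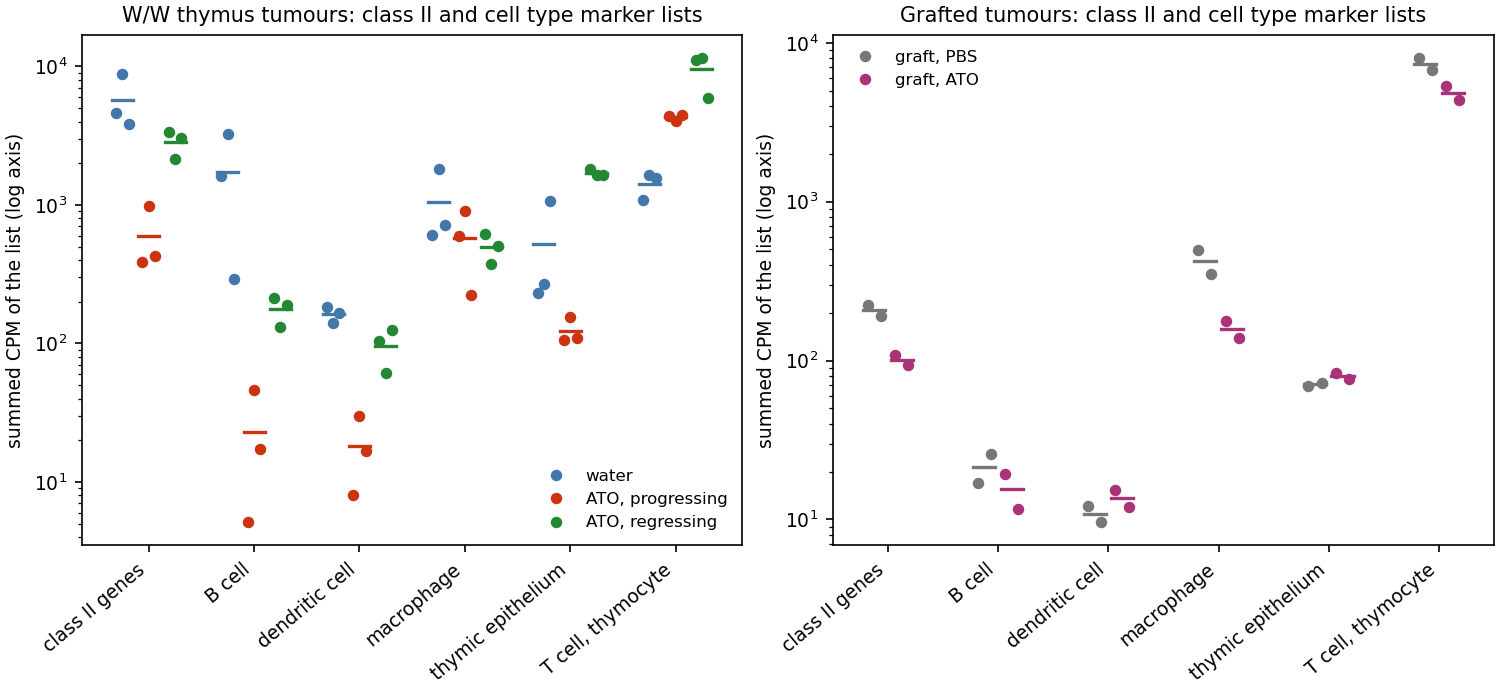
Summed CPM per library (log axis) of the 10 class II genes and of 5 lists of cell type markers, in thymus tumours (left) and grafted tumours (right); points are libraries and bars are group means. The class II, B cell and dendritic cell sums are lowest in the progressing libraries, and in the grafts the class II and macrophage sums are lower after ATO.

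In the grafted tumours class II RNA was scarce and fell further after ATO for 3 members. The sum of the 10 genes was 222 and 191 CPM after PBS and 108 and 93.2 CPM after ATO. By edgeR's quasi-likelihood test, 3 of 10 members were lower, where 6.57% of the 15468 genes tested were, and 7 did not pass, with 6 at an unadjusted p under 0.05. The ATO libraries lay below the PBS libraries for 7 members (30% of tested genes) and above them for Ciita (31.7%). The median log2 fold change was -0.86 (range -1.44 to 0.82), beside 0.04 over all genes. Lower calls made up 47.1% of the calls over all genes, and 22.4% when libraries were scaled by total count only.

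Cd74 was at 71.3 and 54.4 CPM after PBS and at 28.5 and 20.5 CPM after ATO, a 2.57-fold difference (log2 fold change -1.36, SE 0.25, edgeR adjusted p = 0.0105). H2-Aa was at 38.1 and 35.2 CPM after PBS and at 17 and 10.6 CPM after ATO, 2.66-fold lower (-1.41, SE 0.29, adjusted p = 0.0147). H2-Ab1 was at 56.9 and 42.1 CPM after PBS and at 24.1 and 31.1 CPM after ATO, 1.79-fold lower (-0.84, SE 0.25, adjusted p = 0.0469). The Cd74 and H2-Aa calls held without each library in turn, whereas H2-Ab1 did not pass without PBS replicate 1 (-0.62, adjusted p = 0.312) or ATO replicate 1 (-0.68, adjusted p = 0.132), or when scaled by total count only (-0.64, adjusted p = 0.11).

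H2-Eb1 was at 27.4 and 29 CPM after PBS and at 18.6 and 8.35 CPM after ATO (-1.07, SE 0.36, edgeR adjusted p = 0.0672), and passed without ATO replicate 1 (-1.77, adjusted p = 0.000141). H2-DMa was at 9.9 and 12.9 CPM after PBS and at 6.34 and 5.98 CPM after ATO (-0.89, adjusted p = 0.121). H2-DMb1 was at 5.02 and 5.84 CPM after PBS and at 3.02 and 0.986 CPM after ATO (-1.44, adjusted p = 0.0963), and passed without ATO replicate 1 (-2.46, adjusted p = 0.00266). None of these 3 passed with all libraries, although their groups did not overlap. For H2-DMb2 the PBS libraries held 11 and 12 counts and the ATO libraries 10 and 3, and no difference was detectable at this depth. In both graft groups H2-DMb2 to H2-DMb1 was under 1 per length, at 0.153 and 0.133 after PBS and 0.235 and 0.192 after ATO.

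H2-Oa and H2-Ob, at 3.61 to 6.99 CPM and 3.86 to 6.44 CPM over the 4 graft libraries, overlapped between the treatments. Ciita was the member with higher values after ATO in both libraries, at 1.82 and 2.01 CPM after PBS and 2.43 and 4.34 CPM after ATO (0.82, SE 0.51, edgeR adjusted p = 0.291), and Rfx5 was higher after ATO (1.00, SE 0.29, adjusted p = 0.0427), where 7.37% of tested genes were. Of the 10 processing genes 4 were lower, where 6.57% of tested genes were: Ctsd (-1.45), Ctsh (-1.01), Ctsb (-0.96) and Lgmn (-0.86), with edgeR adjusted p between 0.0079 and 0.0432. For the interferon gamma axis 0 of 8 tested genes were called by edgeR, DESeq2 or limma-voom, with 0 at an unadjusted p under 0.05, and the same counts of 0 held for the 5 costimulation genes; over all tested genes 13.9% were called by edgeR.

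In the grafts the macrophage marker sum was lower after ATO, as was the class II sum. The macrophage sum stood at 495 and 351 CPM after PBS and 178 and 139 CPM after ATO. C1qa (-2.19, edgeR adjusted p = 0.00269), C1qb (-1.88, adjusted p = 0.00557) and C1qc (-1.69, adjusted p = 0.0114), complement genes of tissue macrophages, were lower. In the grafts 6.57% of tested genes were called lower and 7.37% higher. The other 6 macrophage markers were not called and did not move alike. Mean CPM after PBS and ATO was 47.5 and 28.7 for Cd68, 12.6 and 10 for Adgre1 and 11.7 and 11.8 for Csf1r. It was 7.18 and 13.4 for Cd14, 6.43 and 3 for Fcgr1 and 2.87 and 2.55 for Mertk. B cell markers summed to 11.6 to 25.7 CPM over the 4 libraries, with Ms4a1 at 0 counts in both ATO libraries, and dendritic cell markers to 9.6 to 15.3 CPM. The mitochondrial share of counts was 0.521% and 1.02% after PBS and 5.98% and 4.03% after ATO. The T cell and thymocyte markers summed to 8024 and 6763 CPM after PBS and 5348 and 4350 CPM after ATO, also without overlap; Cd3d (-1.12, edgeR adjusted p = 0.0104), Dntt (-1.1, adjusted p = 0.0109) and Ptcra (-1.45, adjusted p = 0.0423) were lower, Cd4 (1.06, adjusted p = 0.0249) was higher, and 7 of the 11 were not called. The part of these cell types or of the mitochondrial share in the class II differences was not tested.

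Genes with the pattern most like the class II profile were looked for over the 9 thymus tumour libraries. The reference was the mean of the centred log2(CPM + 1) profiles of H2-Aa, H2-Ab1, H2-Eb1 and Cd74. Likeness was the root mean square difference from it, ranked over 10036 genes of at least 10 CPM on average. Genes named by Gm or Rik numbers and immunoglobulin and T-cell receptor genes were left out of this ranking. The nearest genes outside the members were Ccl5 at 0.23, Themis2 at 0.32, H2-D1, a class I chain, at 0.35, Cd86 at 0.36, Retreg1 and Tle4 at 0.43, S100a10 and Klf2 at 0.45, Rasa3 at 0.47 and Tapbp, a chaperone of class I loading, at 0.48. Members outside the reference lay at 0.48 (H2-DMa and H2-DMb1), 0.75 (H2-DMb2), 0.86 (H2-Oa), 0.89 (H2-Ob) and 1.19 (Ciita). Of the genes that define the reference, H2-Ab1 lay at 0.17 and H2-Aa at 0.22. Cd74 and H2-Eb1 lay at 0.62 each, farther from their own average than the nearest genes named above.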

How the data were processed

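Per the labels' protocols, TRIzol was used for RNA extraction and a SMARTer mRNA-Seq kit for the libraries; their text also holds a passage on cultured cells that does not describe tumours. The submitters' processing notes name FastQC 0.10.1, cutadapt 1.9.1, HISAT2 2.0.1 and the builds GRCm38 and mm10; how reads were counted, whether by strand, and on which annotation is not given in the sources used here. The authors deposited 3 tables (thymus tumours, grafts, U937 cells), each with unnormalized counts and FPKM values per gene. The deposited FPKM values served only to check totals. The total they imply exceeded the summed counts by 0.106% to 2.33% in the thymus tumour table. Some counted features may thus be missing here, but the reason for the excess was not tested. Coordinates of all 10 members matched GRCm38 in the thymus tumour table and 0 of 10 in the graft table, whose build is not named.

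The test of counts was that of edgeR 4.0.16, run under R 4.3.3 (filterByExpr, TMM, quasi-likelihood test, Benjamini-Hochberg over all genes tested, adjusted p under 0.05), the 9 thymus tumour libraries in a single fit of 3 groups and the 4 graft libraries alone. CPM used TMM-scaled totals. Ratios within libraries were compared by exact two-sided permutation tests. DESeq2 1.42.0 and limma 3.58.1 were alternatives, and the test was tried on simulated data. No library pair held identical values. All 10 members are named, with 9 preset pathway genes and, per list and comparison, up to 5 called genes of at least 10 CPM; other genes given with values were chosen after these were seen. Some results of single genes under this rule are not reported here. No pairing of the thymus tumour libraries by replicate number was seen, and the labels do not say what the number marks. The members and lists were chosen with earlier results of these data known.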

Additional observations from a re-analysis of the deposited data

Results flagged for a closer look

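For 5 class II genes the 2 ATO groups, which share 1 water group, differed from each other (edgeR's quasi-likelihood test, regressing minus progressing, log2): Cd74 by 3.07 (adjusted p = 0.0256), H2-Aa by 2.46 (0.0159), H2-Ab1 by 2.07 (0.0307), H2-DMb1 by 1.84 (0.027) and H2-DMb2 by 3.7 (0.00924). Each was higher in 3 of 3 regressing libraries than in any progressing library, as were 21.4% of tested genes. The other 5 members did not pass this test, by which 6.45% of tested genes were called higher. Among the 9 fits with 1 library left out, the call was lost in 4 for Cd74, 2 for H2-Aa and 5 for H2-Ab1. It was lost in 4 for H2-DMb1 and 0 for H2-DMb2.

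In U937 cells, a human myeloid line expressing p53 R282W that the comparisons above do not use, HLA-DMA, the human counterpart of H2-DMa, stood at 4.74 CPM after ATO (95% exact Poisson interval 3.75 to 5.92) and at 2.24 CPM after PBS (1.6 to 3.05). There was 1 library per group, the intervals cover counting error only, and no test was possible.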

How the results depend on the processing

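The number of class II genes called was 10 in progressing against water, 5 between the outcomes, 1 in regressing against water and 3 in the grafts. With no filter on low counts it was 10, 9, 3 and 5, and with DESeq2 10, 9, 3 and 4. Leaving out 1 library at a time gave 8 to 10, 1 to 7, 0 to 2 and 2 to 4. For regressing against water it was 0 without regressing replicate 1, 2 or 3 and 2 without water replicate 3. Without water replicate 2 and progressing replicate 2, an alternative chosen after seeing the data, 10, 10 and 1 were called in the thymus tumours, with 3645 genes called between the outcomes. Without water replicates 1 and 2, also chosen after seeing the data and leaving 1 water library, 3, 6 and 0 were called, and 922, 3008 and 9 genes overall. Over the single genes, H2-Ob in the grafts (0.26) ran from -0.15 without ATO replicate 2 (adjusted p = 0.892), a reversal, to 0.55 without ATO replicate 1, and no other member's direction changed. The calls over all genes, 2157, 2289, 1396 and 2157, became 3594, 3621, 2689 and 3274 with no filter, 3733, 4121, 3354 and 2579 with DESeq2, and 907 to 2557, 177 to 3825, 60 to 1612 and 685 to 2420 with 1 library left out; with the third group left out of the fit, 882 were called in progressing against water. Scaling by total count only moved the median of all genes by 0.2 in both comparisons of regressing tumours and by 0.19 in the grafts, and kept the direction of all 10 members in each. The cause of these changes was not tested. Depth limits H2-DMb2 in the grafts, with 3 to 12 counts per library, and Ciita in progressing replicate 2, with 12.

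With the replicate number as a block, the pairing gave 10, 6, 1 and 2 class II genes called, and 1405, 1597, 956 and 1350 genes overall. Correlations between same-numbered thymus tumour libraries ran from -0.12 to 0.15, beside -0.17 to 0.17 between differently numbered ones. No pairing by number was seen, but with 3 libraries per group this check cannot settle what the number marks. In the grafts the correlation was -0.12 for same numbers and 0.12 for crossed numbers. With 2 libraries per group these must be equal and opposite, so the sign alone does not show a pairing. A block with crossed numbers, chosen after seeing the data, gave 5 class II genes called and 3298 genes in total.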

Other observations

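In the 2 U937 libraries, human class II RNA was mostly at or near the detection limit, and the values compare those libraries only. CD74 stood at 201 CPM after PBS (95% exact Poisson interval 194 to 207) and at 136 CPM after ATO (130 to 142), and CIITA at 9.96 CPM (8.55 to 11.5) and 4.13 CPM (3.21 to 5.24). HLA-DOB stood at 4.81 CPM (3.85 to 5.94) and 2.43 CPM (1.74 to 3.31). HLA-DRA had 16 and 10 counts and HLA-DRB1 29 and 13, while HLA-DQA1, HLA-DQB1 and HLA-DOA had 0 in both, which allows up to 0.206 CPM after PBS and 0.224 CPM after ATO by the exact 95% interval. HLA-DMB had 11 and 17 counts, with overlapping intervals.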
